A study of Bos taurus with 57 samples.

Results

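The 2 genes described here, listed in the count files under the Ensembl identifiers ENSBTAG00000011677 and ENSBTAG00000014149, were scarce in the testes of bull calves and lower there on a low plane of nutrition. They were chosen from the testes counts, as rows at a level of at most a few CPM (counts per 1000000 counted reads) and 4-fold or more lower relative to the high plane, and the second also because it leaned the other way in the anterior pituitary. They are 2 of the 24616 identifiers counted. No symbol, position or sequence was paired with either identifier in the tables used here, so that what their products do is not stated.

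RNA was sequenced from Holstein Friesian bull calves, all male, that grew by 1.08 kg/day on a high plane of nutrition or by 0.5 kg/day on a low plane of nutrition and were slaughtered at 126 days. These are the rates in the sample labels, and the design text of the series gives a higher rate as the aim for the high plane. The labels name no transgene, drug or other treatment, and diet is the difference they state between groups. The testes gave 10 libraries on the high plane and 8 on the low plane, the anterior pituitary 9 and 10, and the arcuate nucleus 10 and 10. The comparison asks how early-life nutrition relates to gene expression along the axis that governs puberty.

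The 3 tissues form the hypothalamic-pituitary-testicular axis. The arcuate nucleus of the hypothalamus receives metabolic signals and relays them to neurons that release gonadotropin-releasing hormone, and the anterior pituitary answers that hormone with luteinising and follicle-stimulating hormone. In the prepubertal testis, luteinising hormone acts on Leydig cells, which make testosterone, and follicle-stimulating hormone acts on Sertoli cells, which nurse the germ cells inside the seminiferous tubules.

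Depth ran from 898979 to 32009433 counted reads per library. In the testes it was lower on the low plane, with a mean of 14334389 reads against 19051478 (two-sided exact permutation test, p = 0.0334, 8 and 10 libraries). Libraries also fell apart on a score that averages the log2 CPM of 200 genes, without either gene described here. For each tissue they were the genes that, with diet allowed for, rose most along the main axis of difference between libraries (multidimensional scaling) in the remaining tissues. A value of 2.5 separated a lower class, which held 1 of 10 high plane and 5 of 8 low plane testes libraries, 3 of 9 and 2 of 10 anterior pituitary libraries, and 0 of 10 and 2 of 10 arcuate nucleus libraries. In the testes, low plane libraries B26 and B20 of this class were intermediate, with scores of 0.370 and 1.58. The others of the class scored −0.651 (B42) or less, and the upper class 4.20 or more. A testes library of the high plane, A48, carries the letter of the pituitary series, but its log2 CPM values had a median correlation of 0.979 with the other testes libraries and 0.763 with those of the pituitary. Because the identifiers could not be paired with symbols, the cell type markers of the 3 tissues were not examined.

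In the testes, ENSBTAG00000011677 was read in all 10 high plane libraries, with 9 to 59 reads each. The level was 0.45 CPM in the lowest library (B42), 1.94 CPM at the median and 3.92 CPM in the highest (B5). The other 8 libraries of the high plane lay between 1.23 and 3.21 CPM. On the low plane the 8 libraries held 20 reads in all. Libraries B21 and B2 held no read, which allows up to 0.216 and 0.196 CPM at the limit of 3 reads. B15 stood at 0.109 CPM, B50 at 0.138 CPM and B26 at 0.188 CPM, and the remaining libraries B7, B20 and B31 at 0.218, 0.349 and 0.355 CPM. Every low plane library was thus below every high plane library, with the highest low plane value next to that of B42. Of the 15310 genes tested in the testes, 7 were separated in this direction (0.0457%), and since the gene was chosen on these values the separation is a description only.

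High plane libraries averaged 2.09 ± 1.02 CPM (SD, n = 10) and low plane libraries 0.170 ± 0.137 CPM (SD, n = 8). The fitted log2 fold change, low relative to the high plane, was −3.62 (SE 0.499), or 12.3-fold lower, against a median of −0.01 over all genes tested, and it was the lowest of all of them. Pooled over the low plane libraries, the level was 0.174 CPM with a 95% exact Poisson interval of 0.107 to 0.269 CPM, which covers counting error only. Counting error alone would give a coefficient of variation of 66.7% between these low plane libraries, and the observed one was 80.7%. On the high plane it would give 16.4%, and 49% was observed.

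ENSBTAG00000014149 held 17 to 95 reads in the high plane testes libraries. Its level was 0.850 CPM in the lowest (B42), 1.20 CPM in the next (B30), 3.13 CPM at the median and 4.81 CPM in the highest (B49). On the low plane the lowest library was B2 at 0.261 CPM, followed by B50 at 0.553, B21 at 0.576, B31 at 0.659, B20 at 0.815, B7 at 0.917, B26 at 1.04 and B15 at 1.20 CPM. Here the diets overlapped, since B42 and B30 of the high plane lay at or below the highest low plane library, and 8 of the 10 high plane libraries lay above all of the low plane.

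ENSBTAG00000014149 averaged 2.96 ± 1.29 CPM (SD, n = 10) with the high plane and 0.753 ± 0.302 CPM (SD, n = 8) with the low plane. The log2 fold change was −2.04 (SE 0.334), or 4.12-fold lower, which placed it just inside the 4-fold limit of its choice. This depended on the scaling, since the ratio of the mean CPM was 3.935 and the log2 fold change without TMM factors was −1.98. Reads of this gene were present in all 8 low plane libraries, 83 in all, so "nearly lost" described ENSBTAG00000011677 but not ENSBTAG00000014149. In bulk tissue, fewer cells of a type and less RNA per cell cannot be told apart for either gene.

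**Figure D1:**
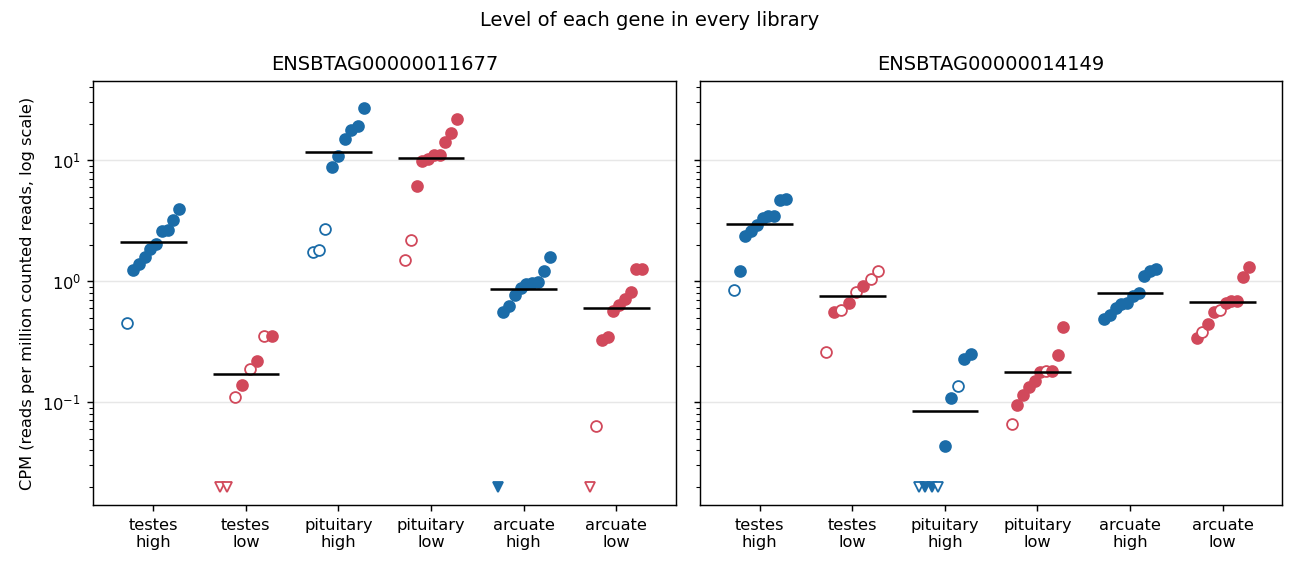
Level of each gene in every library of the 6 tissue and diet groups, in CPM on a log axis, with high plane libraries in blue, low plane libraries in red and the group mean as a black line. Open symbols mark libraries of the lower score class, and triangles at the bottom edge mark libraries without a read, whose height has no meaning. In the testes, ENSBTAG00000011677 has no low plane library above 0.355 CPM and no high plane library below 0.45 CPM, while the diets overlap for ENSBTAG00000014149.

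Among all 15310 genes tested in the testes, 330 were called lower on the low plane (2.16%) and 727 higher (4.75%) at a false discovery rate (FDR) of 0.05 by the quasi-likelihood test of edgeR. A log2 fold change of −2 or lower was found in 36 genes, of which 28 were called. Of these, 10 had a high plane mean below 5 CPM, and the genes described here are 2 of them, at the lowest and the highest of the 10 fold changes. These calls depended on the fit. With the log2 total count as a covariate only 2 of all genes were called, ENSBTAG00000011677 among them and ENSBTAG00000014149 not. Among the libraries of the upper score class alone, 9 and 3, 0 genes were called. The loss of a call in these fits was thus shared by nearly all genes. Both genes were chosen on the testes difference, so whether either was called in any fit is a description only. In the fit on diet alone, the nearest called gene of such a low level outside the limit had a log2 fold change of −1.88. Regardless of level, the genes next to the limit stood at −2.03 inside and −1.99 outside.

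**Figure D2:**
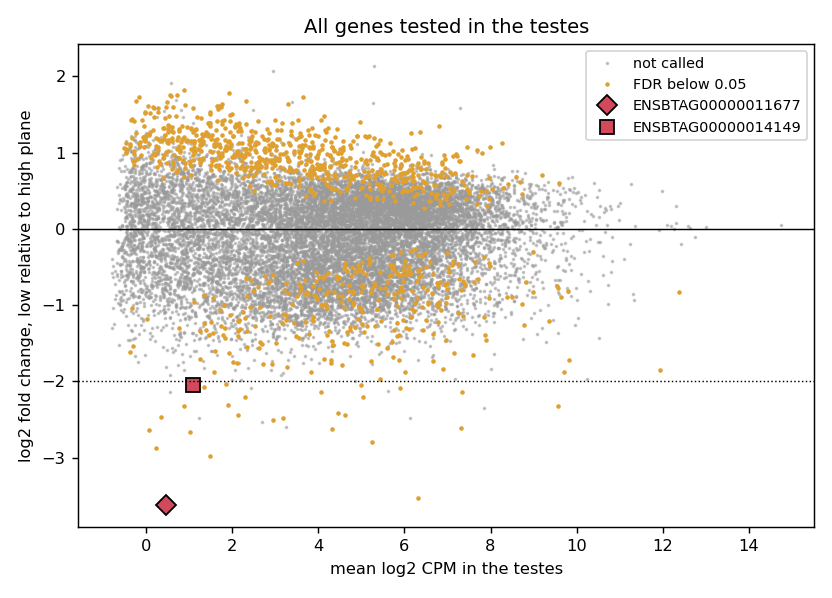
Log2 fold change in the testes, low relative to the high plane, against the mean log2 CPM of each of the 15310 genes tested, with called genes in orange and the 2 genes described here in red. The dotted line marks the log2 fold change of −2 used to choose them, and ENSBTAG00000011677 at −3.62 is the lowest point.

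The lower score class held most low plane testes libraries, so levels were also read within each class. Among the 12 testes libraries of the upper class, ENSBTAG00000011677 ranged from 1.23 to 3.92 CPM on the high plane (9 libraries) and from 0.138 to 0.355 CPM on the low plane (3 libraries). ENSBTAG00000014149 ranged from 1.20 to 4.81 CPM and from 0.553 to 0.917 CPM in these libraries. Neither gene overlapped between diets there, as was the case, in this direction, for 1.53% of the genes tested. Both genes were chosen on values that include these libraries, so this separation is a description only. The log2 fold changes within this class were −3.28 (SE 0.480) for ENSBTAG00000011677 and −2.24 (SE 0.399) for ENSBTAG00000014149.

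The lower class had only B42 on the high plane. For ENSBTAG00000011677, B42 at 0.45 CPM was above the 5 low plane libraries of its class, which ran from 0 to 0.349 CPM. For ENSBTAG00000014149, B42 at 0.850 CPM lay inside their range of 0.261 to 1.20 CPM. With 1 library on the high plane, the diets could not be compared within the lower class beyond these values. With the score as a covariate over all 18 libraries the log2 fold changes were −3.05 (SE 0.431) and −1.80 (SE 0.388), and with the log2 total count as a covariate −3.73 (SE 0.551) and −2.17 (SE 0.401), first gene first.

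In the anterior pituitary, ENSBTAG00000011677 had a higher mean level than in the testes, and the ranges of the diets overlapped. Of the 19 pituitary libraries, 5 lay at or below the highest testes library. The gene was chosen for a low level in the testes, so this difference between tissues is a description only. High plane libraries ran from 1.74 CPM (A57) over a median of 10.7 CPM to 27 CPM (A29). Low plane libraries ran from 1.5 CPM (A10) over a median of 10.5 CPM to 21.9 CPM (A4). The means were 11.6 ± 8.83 CPM (SD, n = 9) and 10.5 ± 6.24 CPM (SD, n = 10). The log2 fold change was −0.13 (SE 0.524, 95% interval −1.24 to 0.97) and did not pass the test (edgeR quasi-likelihood, FDR = 0.958), where 81 of 14411 genes were called (0.562%).

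The wide range of ENSBTAG00000011677 in this tissue went with the score class. The 5 libraries of the lower class stood at 1.5 CPM (A10), 1.74 CPM (A57), 1.80 CPM (A18), 2.18 CPM (A47) and 2.71 CPM (A51). The 14 libraries of the upper class ran from 6.15 CPM (A19) to 27 CPM (A29), with a median of 12.6 CPM. The classes did not overlap, the means differed 7.15-fold (14.2 against 1.99 CPM), and both diets had libraries in each class. Such a separation was common, as 33.6% of the genes tested in the pituitary were lower in every library of the lower class. Over the 19 libraries the correlation of this gene with the score, within diets, was 0.938 (Pearson) and 0.754 (Spearman), a description of libraries that also differ in depth.

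With the score as a covariate, the standard error of the pituitary diet difference of ENSBTAG00000011677 fell from 0.524 to 0.215. The log2 fold change was then −0.39 (FDR = 0.280, edgeR), and within the upper class alone −0.36 (SE 0.264, FDR = 0.455). Over all the alternatives for this difference, libraries left out in turn aside, the FDR ran from 0.280 to 0.999. In that class the 6 high plane libraries averaged 16.4 ± 6.56 CPM and the 8 low plane libraries 12.6 ± 4.85 CPM, with ranges that overlapped.

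ENSBTAG00000014149 was barely read in the anterior pituitary and was removed there by the filter on low counts. On the high plane 4 of 9 libraries (A57, A18, A1 and A23) held no read, and the others had 0.043 CPM (A36), 0.108 CPM (A39), 0.135 CPM (A51), 0.226 CPM (A29) and 0.252 CPM (A11), 13 reads in all. On the low plane all 10 libraries held a read, 33 in all, from 0.065 CPM (A10) over a median of 0.164 CPM to 0.416 CPM (A52). The low plane was thus the higher one, with a mean of 0.176 ± 0.099 CPM against 0.085 ± 0.101 CPM, a ratio of 2.08. The ranges overlapped, since every low plane library other than A52 lay below the highest high plane library (A11). The 4 high plane libraries at 0 had too few reads to set a level. For those 4, a count of 0 allows 0.435, 0.338, 0.215 and 0.176 CPM, within or above the range of the low plane.

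The pooled pituitary level of ENSBTAG00000014149 was 0.095 CPM (95% exact Poisson interval 0.051 to 0.163) on the high plane and 0.190 CPM (0.131 to 0.267) on the low plane. These intervals overlap, but their overlap is not a test of the difference between the diets. Counting error alone would give a coefficient of variation of 88.7% on the high plane and 57.3% on the low plane, and 119% and 56.0% were observed. With the filter on low counts lifted, the fitted log2 fold change was 0.90 (SE 0.519). The direction was part of how the gene was chosen, so it is given as a description, without a p-value.

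In the arcuate nucleus both genes were read at a level near 1 CPM or less on both diets. ENSBTAG00000011677 ran from 0 (C22) over a median of 0.919 CPM to 1.58 CPM (C9) on the high plane, and from 0 (C6) over a median of 0.603 CPM to 1.27 CPM (C13) on the low plane. C22 was the shallowest library of the series, and its count of 0 allows up to 3.34 CPM, above every other arcuate library. With C22 left aside, the lowest high plane library was C25 at 0.556 CPM. Low plane libraries C6, C33, C41 and C55 lay below it, at 0, 0.064, 0.325 and 0.346 CPM, and the others overlapped with the high plane. The high plane mean was then 0.947 CPM. Over all libraries the means were 0.852 ± 0.418 CPM (SD, n = 10) and 0.598 ± 0.437 CPM (SD, n = 10). The log2 fold change was −0.64 (SE 0.388, 95% interval −1.46 to 0.17) and did not pass the test (edgeR quasi-likelihood, FDR = 0.490).

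The lowest arcuate values of ENSBTAG00000011677, C22 aside, were in the lower score class. C6 and C33, both of the low plane and the only arcuate libraries of that class, held 0 and 1 read, or 0 and 0.064 CPM, and the 17 upper class libraries other than C22 ran from 0.325 to 1.58 CPM. With C22 left aside, 39.8% of the genes tested in the arcuate nucleus were separated in the same way. Within the upper class the diet difference was −0.39 (SE 0.295), smaller than over all libraries.

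ENSBTAG00000014149 ran from 0.486 CPM (C25) over 0.704 CPM at the median to 1.25 CPM (C53) on the high plane of the arcuate nucleus, and from 0.335 CPM (C24) over 0.619 CPM to 1.32 CPM (C55) on the low plane. The diets overlapped in part, with C24, C33 and C43 of the low plane below every high plane library, C43 at 0.446 CPM. C6 and C33 lay within the range of the other low plane libraries, at 0.577 and 0.381 CPM. The means were 0.804 ± 0.287 CPM and 0.672 ± 0.309 CPM (SD, n = 10 each), with a log2 fold change of −0.20 (SE 0.257, 95% interval −0.74 to 0.34, edgeR FDR = 0.693). No gene of the 14757 tested in the arcuate nucleus was called (0%) by this test, 1464 had an unadjusted p below 0.05, and the exact test of edgeR and DESeq2 each called 1.

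**Figure D3:**
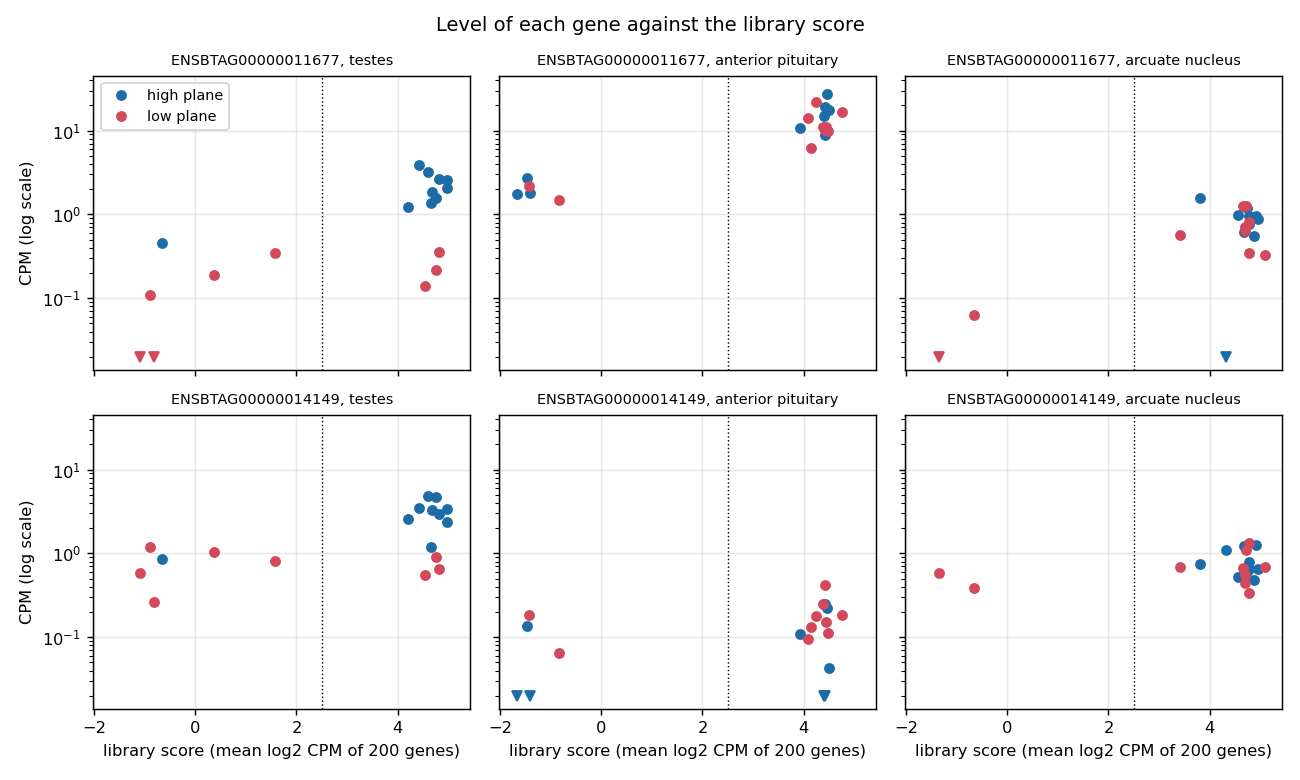
Level of each gene (CPM, log axis) against the library score (mean log2 CPM of 200 genes) in the 3 tissues, with high plane libraries in blue and low plane libraries in red. The dotted line at 2.5 separates the score classes and triangles at the bottom edge mark libraries without a read. In the anterior pituitary the 5 lower class libraries of ENSBTAG00000011677 lie at 1.5 to 2.71 CPM and the others at 6.15 CPM or above, while ENSBTAG00000014149 has both classes in 1 range in the pituitary and the arcuate nucleus.

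The tissues ranked the genes' levels differently. Both genes were chosen for a low level in the testes, so the place of the testes in these orders is a description only. For ENSBTAG00000011677 the group means fell from the anterior pituitary (11.6 CPM high plane, 10.5 CPM low plane) to the high plane testes (2.09 CPM), the arcuate nucleus (0.852 CPM high plane, 0.598 CPM low plane) and the low plane testes (0.170 CPM). Each of these groups overlapped with its neighbour in that order. For ENSBTAG00000014149 the high plane testes came first (2.96 CPM), followed by the high plane arcuate nucleus (0.804 CPM), the low plane testes (0.753 CPM), the low plane arcuate nucleus (0.672 CPM) and the pituitary of the low plane (0.176 CPM) and of the high plane (0.085 CPM). The 3 middle groups lay within each other's spread.

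Between the anterior pituitary and the arcuate nucleus, which played no part in the choice for their difference in level, both genes differed and in opposite directions. ENSBTAG00000011677 was 17.7-fold higher in the pituitary (log2 difference 4.14, SE 0.345, 95% interval 3.45 to 4.84, edgeR FDR = 7.03e-16). ENSBTAG00000014149 was 4.56-fold lower in the pituitary (log2 difference −2.19, SE 0.268, 95% interval −2.73 to −1.65). This gene passed the filter on low counts only through tissues other than the pituitary, where it had 46 reads over 19 libraries. A lower pituitary level was thus favoured by the filter, so the difference of ENSBTAG00000014149 is a description only, without a p-value. With the filter lifted, the log2 difference was −2.27 (SE 0.270). The tissues were taken from the same calves, but the library codes do not say which libraries share a calf, so the fit treated all libraries as independent and its errors and FDR values do not account for shared calves. Tissue differences were the rule, since 36.4% of the 16476 genes tested were called higher and 31.6% lower in the pituitary. For ENSBTAG00000011677 the diet difference in the pituitary less that in the arcuate nucleus was 0.50 on the log2 scale (SE 0.628), and was not shown to differ between these tissues (edgeR FDR = 0.657), in the same fit.

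Among the testes libraries the 2 genes tended to be low together. Within diets, their log2 levels had a Pearson correlation of 0.631 and a Spearman correlation of 0.442 over 18 libraries. On the high plane alone the Pearson correlation was 0.719 over 10 libraries, and without B42, which was the lowest library for both genes, it was 0.479 over 9. In the pituitary it was 0.431 over 19 libraries and in the arcuate nucleus −0.20 over 20. With the score, ENSBTAG00000011677 had a Pearson correlation of 0.686 over the testes libraries and 0.633 over the arcuate ones, and ENSBTAG00000014149 of 0.308, 0.337 and 0.023 in the testes, pituitary and arcuate nucleus. Spearman's correlations were lower, in the same order 0.513 and 0.278 for ENSBTAG00000011677, and 0.046, 0.295 and −0.012 for ENSBTAG00000014149. These points share their library depth and class, and are given as descriptions.

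The gene whose log2 level was most like that of ENSBTAG00000011677 over the 18 testes libraries, within diets, was ENSBTAG00000018785 (Pearson correlation 0.923). The other 4 of the 5 most alike had correlations of 0.900 to 0.906, and 2 of the 5 were called lower on the low plane, where 2.16% of all genes were. The gene most like ENSBTAG00000014149 was ENSBTAG00000008635 (0.827), which was itself called lower (log2 fold change −1.48, edgeR FDR = 0.0322). The others of its 5 had correlations of 0.761 to 0.791, and 3 of the 5 were called lower. Neither list was stable, since over the high plane testes libraries alone 0 of the 5 genes were shared for either gene, and with Spearman's correlation 1 of 5 and 3 of 5.

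Leaving out each testes library in turn kept both genes lower on the low plane, with log2 fold changes from −3.92 to −3.41 for ENSBTAG00000011677 and from −2.17 to −1.90 for ENSBTAG00000014149. Under the other settings tried the values ran from −3.73 to −3.05 and from −2.24 to −1.80. The plot of diet differences by setting shows that the 2 genes kept apart from 0 in the testes and that in the arcuate nucleus both lay below 0, closer to it than in the testes. Since both genes were chosen on the testes difference, its persistence over fits of the same libraries is a description only. In the pituitary ENSBTAG00000011677 ran from −0.39 to −0.08 over the alternatives and was above 0 only without A29, at 0.10.

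**Figure D4:**
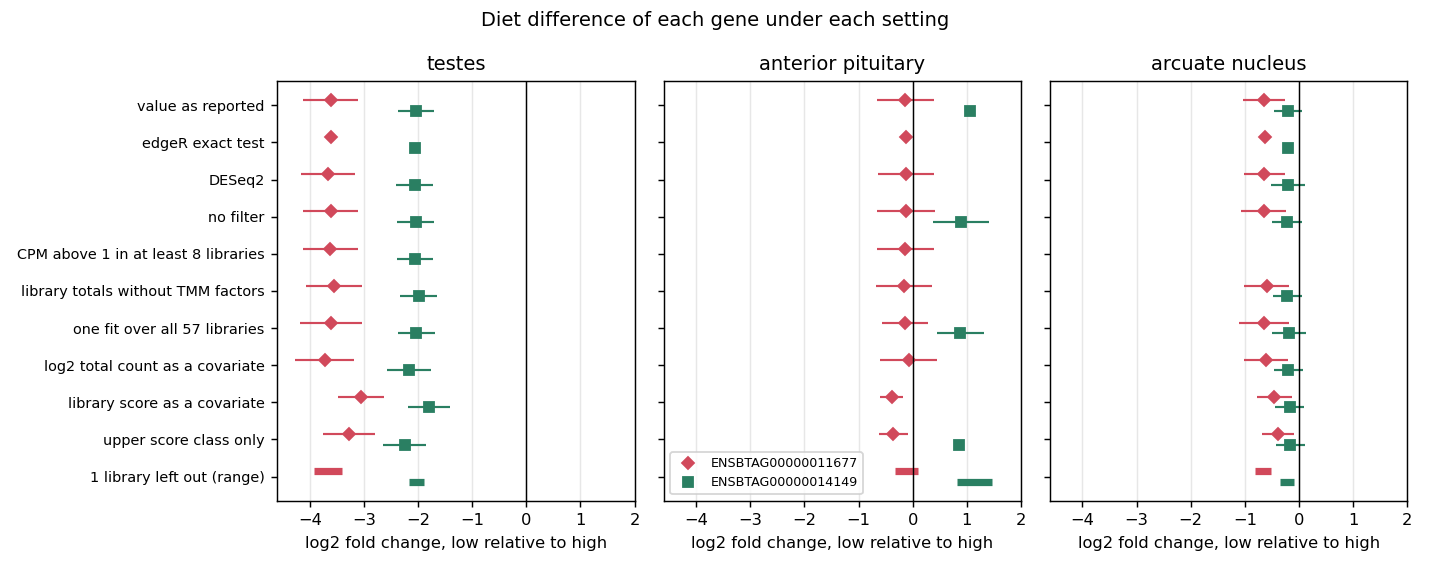
Log2 fold change of each gene, low relative to the high plane, in the 3 tissues under each setting, with bars of 1 standard error where the fit gave one and thick bars for the range over fits that leave out 1 library. For ENSBTAG00000014149 in the anterior pituitary, where the filter removes the gene, the reported value, that of the upper score class and the range are log2 ratios of mean CPM, and empty places are settings that gave no value. In the testes every point lies at −1.80 or below.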

How the data were processed

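The deposited files hold, for each of 57 libraries, the count of single-end reads on each Ensembl gene, made by the authors with STAR and HTSeq according to the submitters' processing notes and not normalized. The genome build and annotation release were not given in the sources used here. Each tissue was fitted apart in R 4.3.3 with edgeR 4.0.16 (default filter on diet, TMM scaling, quasi-likelihood test, Benjamini-Hochberg adjustment over all genes tested, FDR threshold 0.05). The pituitary and arcuate nucleus were compared in 1 fit over all 57 libraries. CPM values are reads per 1000000 counted reads, without TMM factors. Within a tissue, libraries were taken as separate calves, which the labels do not state in words. The same calves gave the 3 tissues, but library codes were not shared between tissues, so libraries of a calf could not be paired. Correlations used log2 CPM with a prior count of 2, as deviations from the diet mean, and named the 5 most alike genes. Since CPM is not corrected for gene length, levels were compared within a gene only. Planned gene lists and markers could not be applied, because 0 of 24616 identifiers could be paired with a symbol. Fits were tested on simulated counts. Permutation tests used scipy 1.17.1. The 2 genes, lists and alternatives were chosen with earlier results of these data known, and the 3 alternatives by score class after the files were seen.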

Additional observations from a re-analysis of the deposited data

Results flagged for a closer look

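In 1 of the 12 sets of values formed by the 2 genes in the 6 groups, a library stood apart from the rest of its group by Dixon's criterion. This was ENSBTAG00000014149 in the low plane anterior pituitary, where library A52 had 0.416 CPM, from 10 reads, and the next library, A14, had 0.247 CPM, from 4 reads. For normally distributed values, chance sets apart a library in about 1 in 20 groups. That rate need not hold for CPM from so few reads. Without A52 the log2 ratio of mean CPM, low relative to the high plane, was 0.82, and with it 1.05.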

How the results depend on the processing

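The 2 genes kept their direction in the testes and between the pituitary and arcuate nucleus in every setting that gave a value. For the testes this is a description only, since both genes were chosen on that difference. So it is for ENSBTAG00000014149 between the pituitary and arcuate nucleus, where the filter favoured a lower pituitary level. Of the testes calls, that of ENSBTAG00000014149 was lost with the log2 total count as covariate and both in the upper score class. The pituitary difference of ENSBTAG00000011677 (−0.13) reversed to 0.10 without A29, and over all libraries left out in turn ran from −0.32 to 0.10; its arcuate difference ran from −0.82 to −0.51. For ENSBTAG00000014149 the ranges were 0.82 to 1.46 in the pituitary and −0.35 to −0.09 in the arcuate nucleus. Between tissues they were 3.97 to 4.23 for ENSBTAG00000011677 and −2.40 to −2.11 for ENSBTAG00000014149. The counts of called genes moved far more, and the cause was not tested. In the testes, 1057 genes became 1971 with DESeq2 1.42.0, 609 without the filter, 2336 without TMM factors, 2 with the log2 total count as covariate, 0 in the upper score class (9 and 3 libraries), and 158 (without B2) to 4600 (without B42) with 1 library left out. In the pituitary, 81 became 139 with the exact test, 258 with DESeq2, 50 without TMM factors, 1298 with the score as covariate, 833 in the upper class, 174 in 1 fit over all libraries, and 48 (without A52) to 88 with 1 left out. In the arcuate nucleus, 0 became 1 with the exact test, 1 with DESeq2 and 123 in 1 fit, and stayed at 0 with 1 left out. Between tissues, 11213 became 7190 with the low plane only. A filter of CPM above 1 in 8 libraries removed both genes in the arcuate nucleus and ENSBTAG00000014149 in the pituitary, so that it gave no value there. No paired analysis was possible because the groups share no library codes, although the tissues come from the same calves. Depth limits the low values most, since 1 to 5 reads set most levels below 0.3 CPM.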
